A study of Mus musculus with 8 samples.

Results

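Hoxb2, Hoxb4, Hoxb5, Hoxb6 and Hoxb7 are 5 of the 10 genes of the mouse Hoxb cluster, and each was read by 1 probe on the arrays analysed here. They are 5 of 16593 named genes and 5 of 25697 probes. The members were chosen from these same measurements, as the Hoxb genes that were on in wild-type fibroblasts and at background in fibroblasts carrying a mutant eIF4E. The difference between the genotypes is therefore what selected them: it is described below, and no p-value is given for it. The comparison that the choice did not use is polysomal against total RNA within the wild-type cells, and that one was tested.

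The 8 Illumina bead arrays came from mouse embryonic fibroblasts prepared at embryonic day 14.5, immortalised by serial passage and grown in DMEM with 10% foetal bovine serum. One line was wild type (WT), and the other was an eIF4E knock-in (KI) in which the cap-binding factor eIF4E cannot be phosphorylated. Each line gave total cytoplasmic RNA and heavy polysomal RNA, the pool of mRNAs carrying more than 3 ribosomes, in 2 independent experiments, which made 4 groups of 2 arrays. Experiment 1 and experiment 2 stand here for the replicate numbers in the sample titles. The titles do not say that WT and KI samples of the same number were handled together. With 1 line per genotype, genotype and line cannot be told apart, and p-values measure only the spread between experiments on these lines. In these bulk samples, fewer cells that express a gene and less of its RNA per cell cannot be told apart either.

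Hox genes encode homeodomain transcription factors that give cells their position along the body axis. The genes of a cluster lie in a row and are used in an order that follows that row, with genes at one end switched on earlier and further towards the head than genes at the other. Once set in the embryo, the choice of active Hox genes is held by Polycomb proteins, which keep silent genes silent, and trithorax proteins, which keep active genes active, and cultured fibroblasts retain a Hox pattern that reflects the site of the body they came from. In the hindbrain and trunk, retinoic acid is a known inducer of Hoxb genes, and Hox proteins bind DNA together with cofactors of the TALE class, the Pbx, Meis and Pknox proteins.

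By the order of genes in RefSeq (mouse assembly GRCm38.p6), the row on chromosome 11 runs Hoxb13, Hoxb9, Hoxb8, Hoxb7, Hoxb6, Hoxb5, Hoxb4, Hoxb3, Hoxb2 and Hoxb1. Hoxb7 to Hoxb4 are neighbours, and Hoxb2 is separated from them by Hoxb3. The RefSeq promoter table (250 bases before to 50 bases after the annotated start) held 1 of the 5 members, Hoxb4, and 2 of the other 5 Hoxb genes, Hoxb8 and Hoxb1. The Hoxb4 window is shown beside that of Hoxb8, which lies on the far side of Hoxb7 and was at background in both lines, so that the start of a gene that was on in WT can be read against one that was not. The Hoxb4 window is chr11:96318017-96318316 and the Hoxb8 window is chr11:96281655-96281954, both on the plus strand of GRCm38.p6, and capitals mark matches to the motifs named after them.

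Hoxb4: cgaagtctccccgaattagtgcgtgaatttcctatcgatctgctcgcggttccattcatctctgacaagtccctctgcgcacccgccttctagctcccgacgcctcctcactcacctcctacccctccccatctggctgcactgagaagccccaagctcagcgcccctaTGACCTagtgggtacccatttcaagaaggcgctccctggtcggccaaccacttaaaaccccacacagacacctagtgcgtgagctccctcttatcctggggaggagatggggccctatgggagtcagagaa

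Hoxb8: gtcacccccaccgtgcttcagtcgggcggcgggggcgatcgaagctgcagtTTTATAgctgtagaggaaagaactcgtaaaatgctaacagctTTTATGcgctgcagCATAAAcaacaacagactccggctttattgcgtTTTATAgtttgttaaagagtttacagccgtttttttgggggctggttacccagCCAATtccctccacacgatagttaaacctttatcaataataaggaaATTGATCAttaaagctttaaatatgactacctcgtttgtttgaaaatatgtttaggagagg

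Both strands were searched for CACGTG (the E-box), CCAAT (the box bound by NF-Y), TATAAA (the TATA box), AGGTCA (a retinoic acid receptor half-site), TGATNNAT (a PBX-HOX motif) and TTTATG (a caudal motif). The Hoxb4 window held 1 match, AGGTCA on the minus strand at position -81 from the start. The Hoxb8 window held CCAAT at position -57, TATAAA on the minus strand at -199 and -110, TGATNNAT on the minus strand at -11, and TTTATG at -157 and, on the minus strand, at -143. Among the 32851 windows of the table, AGGTCA was found in 16.3%, CCAAT in 37.4%, TATAAA in 13.6%, TGATNNAT in 8.8%, TTTATG in 11.9% and CACGTG in 7.2%. The Hoxb4 window held 14 CpG dinucleotides at a GC content of 58.0%, and the Hoxb8 window 13 at 42.3%, against a median of 7 CpG dinucleotides over all windows. A match is a description of the letters and not evidence of a bound factor.

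Values are given on the scale of the deposited table, taken as log2 signal. Most probes of an array lie in a narrow band at the bottom of that scale, with array medians from 7.69 to 7.73. To mark that band, 37 probes of 25 genes specific to tissues that fibroblast cultures do not contain were read on each array. Their 95th percentile lay between 7.74 and 7.86, and a value above it on the same array is called above the bottom band. A value inside the band gives only an upper bound on a level, and a fold against it is a lower bound. All 5 member probes passed the filter on dim probes, as they had to through their WT arrays, and so did 5 of the 37 probes that mark the band.

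Across the arrays, facts of the series that touch these genes were few. Over all probes, the WT total array of experiment 2 correlated at 0.982 with the KI total array of experiment 2. Its correlation with the WT total array of experiment 1 was 0.970, so it was closer to the other line's array of the same number. The WT total array of experiment 1 correlated at 0.970 with both the KI total array of experiment 1 and the other WT total array, and the KI total arrays correlated at 0.975. Fibroblast markers were above the band for 8 to 9 of 11 genes on every array, with mean log2 signals of 9.72 to 9.79 in WT total, 9.98 to 10.02 in WT polysomal, 9.88 to 9.98 in KI total and 10.09 to 10.25 in KI polysomal RNA. Single fibroblast markers differed more than these means, in both directions. Over the 9 tested, KI minus WT ran from -1.37 to 1.34 in total and from -3.18 to 1.65 in polysomal RNA. For these limma called 0 in either RNA, and 3 in total and 6 in polysomal RNA had an unadjusted p below 0.05. Over all tested genes, the shares at that unadjusted p were 9.07% and 11.5%. Col1a1, a collagen chain, gave 1.34 and 1.47, Thy1, a surface glycoprotein, 0.84 and 1.65, and Pdgfra, a growth factor receptor, -0.92 and -1.37. The leukocyte markers were in or below the band for 3 of 3 genes on every array. Of the endothelial markers 0 or 1 of 5 was above it, of the epithelial markers (Krt14 and Krt8 among them) 1 or 2 of 4, of the neural markers 1 to 3 of 4, of the muscle markers 1 or 2 of 3 and of the mesothelial markers, Msln among them, 1 or 2 of 4. The epithelial, neural and mesothelial means covered overlapping ranges in WT and KI total RNA. The muscle means did not, at 7.82 to 7.84 in WT and 7.75 to 7.79 in KI, nor did the endothelial means, at 7.69 to 7.74 and 7.66 to 7.67. Among the neural markers, Sox2 was above the band on every KI array, at 7.86 to 8.26, and on no WT array, at 7.66 to 7.74. Its KI minus WT differences were 0.23 and 0.38 in total and polysomal RNA (limma, adjusted p = 0.644 and 0.302). Map2, at -0.08 and -0.31, and Tubb3, at -0.16 and -0.02, went the other way. The part of the marker differences in the Hoxb values was not tested.

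Hoxb7, a trunk Hox gene expressed in the neural tube and mesoderm, read 10.03 and 9.65 in WT total RNA and 10.24 and 10.16 in WT polysomal RNA. The KI arrays read 7.64 and 7.65 in total and 7.62 and 7.63 in polysomal RNA. All 4 WT arrays were far above the band and all 4 KI arrays lay in it or below it. KI minus WT was -2.20 in total RNA, with -2.40 in experiment 1 and -2.0 in experiment 2, and -2.58 in polysomal RNA, with -2.63 and -2.53. With each KI array set at the top of its band or at its own value where that was higher, WT was at least 4.12-fold higher in total and at least 5.50-fold higher in polysomal RNA.

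Hoxb4, known for promoting self-renewal of blood stem cells when overexpressed, read 9.73 and 9.48 in WT total RNA and 10.16 and 9.69 in WT polysomal RNA. Its KI values were 7.67 and 7.64 in total and 7.72 and 7.67 in polysomal RNA. The split was as clean as for Hoxb7, with 4 of 4 WT arrays above the band and 0 of 4 KI arrays. The log2 difference, KI minus WT, was -1.95 in total RNA (-2.06 and -1.84 by experiment) and -2.23 in polysomal RNA (-2.44 and -2.01). These correspond to at least 3.49-fold and at least 4.53-fold higher signal in WT.

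Hoxb5, which takes part in patterning of the lung and the enteric nervous system, read 9.71 and 9.20 in WT total RNA and 9.07 and 8.78 in WT polysomal RNA. The KI arrays read 7.66 and 7.67 in total RNA and 7.71 and 7.72 in polysomal RNA. Again 0 of 4 KI arrays rose above the band. KI minus WT was -1.79 in total RNA, but -2.05 in experiment 1 and -1.53 in experiment 2, the widest gap between experiments among the members in that RNA. In polysomal RNA it was -1.21, with -1.36 and -1.06, and WT was at least 3.15-fold higher in total and at least 2.27-fold higher in polysomal RNA.

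Hoxb6, a marker of lateral plate mesoderm in the mouse embryo, read 8.98 and 9.03 in WT total RNA and 8.56 and 8.30 in WT polysomal RNA. The KI arrays read 7.86 and 7.67 in total and 7.66 and 7.70 in polysomal RNA. The KI total array of experiment 1 was just above its band, whose top was at 7.86 too after rounding, and the other 3 KI arrays were not. KI minus WT was -1.24 in total RNA, from -1.12 and -1.36, and -0.75 in polysomal RNA, from -0.90 and -0.60. WT was at least 2.3-fold higher in total and at least 1.61-fold higher in polysomal RNA.

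Hoxb2, which acts in the hindbrain segments and is a known target of Egr2 there, read 9.17 and 9.20 in WT total RNA but only 8.20 and 7.96 in WT polysomal RNA. Its KI values were 7.73 and 7.76 in total and 7.72 and 7.75 in polysomal RNA, of which 1 array of each RNA was just above the band. The WT and KI arrays did not overlap in either RNA, but in polysomal RNA they came closest of the 5 members. KI minus WT was -1.44 in total RNA, with -1.43 and -1.44, and -0.34 in polysomal RNA, with -0.48 and -0.21. The lower bounds were 2.59-fold in total and 1.26-fold in polysomal RNA.

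**Figure D1:**
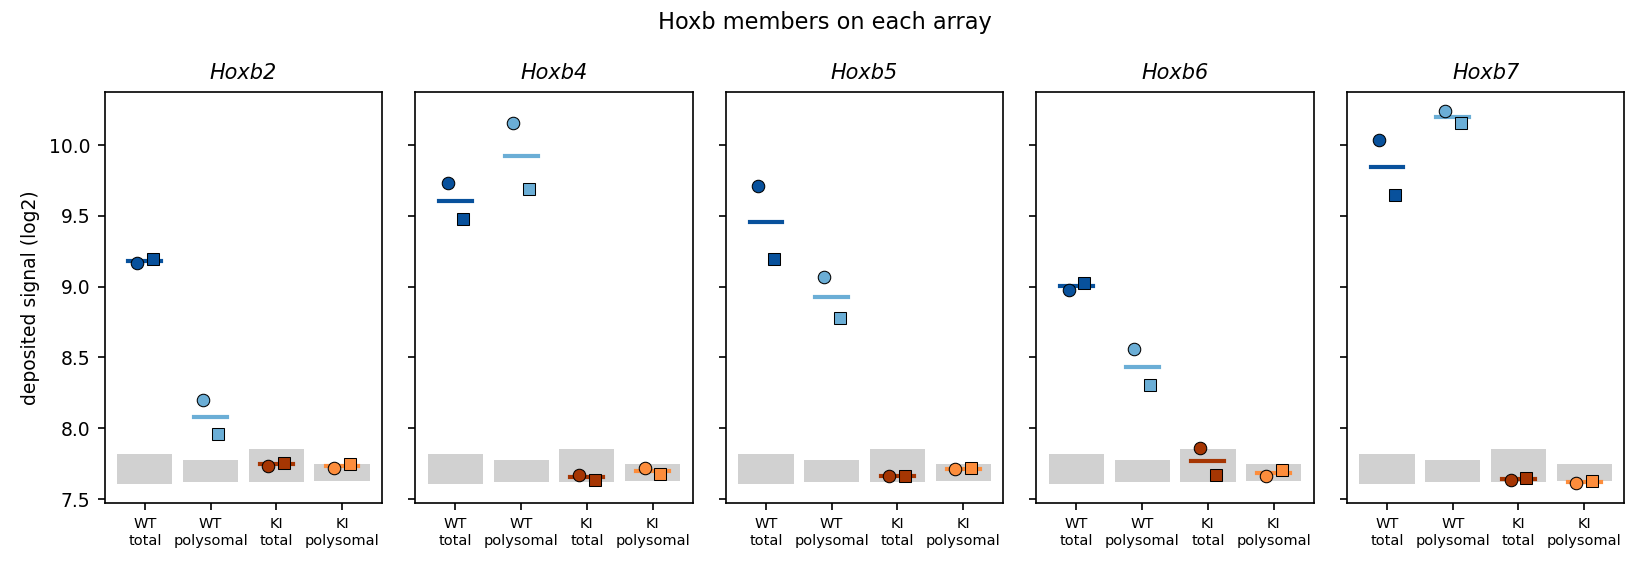
Log2 signal (vertical axis) of Hoxb2, Hoxb4, Hoxb5, Hoxb6 and Hoxb7 on each of the 8 arrays, grouped by line and RNA, with circles for experiment 1, squares for experiment 2, a line at the mean of the 2 and grey shading over the bottom bands of the group's arrays (lowest 5th to highest 95th percentile). For all 5 genes the 4 WT points lie above the band, between 7.96 and 10.24, while the KI points lie between 7.62 and 7.86, in or at the edge of it.

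Over the 5 genes together, the WT total arrays spanned 8.98 to 10.03 with a median of 9.34, and the WT polysomal arrays 7.96 to 10.24 with a median of 8.92. The KI total arrays spanned 7.64 to 7.86 with a median of 7.67, and the KI polysomal arrays 7.62 to 7.75 with a median of 7.71. For 5 of 5 genes both KI arrays were below both WT arrays in each RNA, which held for 19.2% of the 8832 tested genes in total RNA and 29.0% in polysomal RNA. Because the genes were chosen on that difference, nothing is read from the count. The median KI minus WT difference of the members was -1.79 in total and -1.21 in polysomal RNA, against -0.04 and -0.01 over all tested genes. Leaving out 1 array at a time moved these medians to between -2.05 and -1.53 in total RNA and between -1.36 and -1.06 in polysomal RNA. Both ends of the first range came from leaving out a WT total array, the second end without the array of experiment 1 and the first without the array of experiment 2.

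The other Hoxb genes were in or near the band in both lines. Hoxb8, the neighbour of Hoxb7, read 7.61 to 7.68 over the 8 arrays, Hoxb13 read 7.56 to 7.69, and the 2 probes of Hoxb1 read 7.60 to 7.75. The 3 probes of Hoxb3, which lies between the members Hoxb4 and Hoxb2, read 7.66 to 7.81. The brightest of them was the only non-member Hoxb probe to pass the filter, and its KI minus WT difference was -0.05 ± 0.08 (limma log2 difference and SE, adjusted p = 0.912) in total and -0.02 ± 0.08 (adjusted p = 0.997) in polysomal RNA. A second Hoxb3 probe read 7.70 to 7.81 on the WT arrays and 7.66 to 7.69 on the KI arrays, without overlap, but was above its band on 1 array only. The third, above its band on 0 arrays, read 7.77 on both WT total arrays against 7.66 and 7.70 in KI total RNA, and its polysomal arrays overlapped. Hoxb9 was the gene nearest to joining the members: it read 7.76 and 8.05 in WT total, 7.68 and 7.72 in WT polysomal and 7.62 to 7.66 on the KI arrays. Only the WT total array of experiment 2 was above its band for Hoxb9, at 8.05, and on that array the highest of the 37 probes that mark the band read 8.22. On the members' side the lowest WT value was that of Hoxb2 on the WT polysomal array of experiment 2, at 7.96.

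Several of these transcripts overlap in RefSeq: Hoxb5 and Hoxb6 with Hoxb5os, Hoxb4 with Hoxb3, and Hoxb2 with Hoxb3os. Which transcript each probe reads was not analysed here.

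On each side of the cluster the 10 nearest protein-coding genes of RefSeq were followed in the same way. Of these 20, 17 were on the array and 12 were tested, and limma called 0 of the 12 in either RNA at an adjusted p below 0.05. Over all tested genes 0.113% were called in total RNA (0.0566% as lower and as many as higher) and 0.0566% in polysomal RNA (0.034% as lower). The members, chosen for this difference, make up most of the genes called as lower, so these shares are no independent reference for the neighbours. The KI minus WT differences of the 12 tested neighbours ran from -0.65 to 0.26 in total RNA with a median of -0.10, the smallest adjusted p being 0.403. In polysomal RNA they ran from -0.47 to 0.40 with a median of -0.01, the smallest adjusted p being 0.268. Snx11, a sorting nexin just beyond Hoxb1, gave the lower end of both ranges: it read 12.02 and 12.48 in WT total and 11.39 and 11.81 in KI total RNA, and the 2 pairs of arrays overlapped in neither RNA. Skap1, which lies between Hoxb1 and Snx11, did not pass the filter, and neither did Ttll6, the nearest neighbour with a probe beyond Hoxb13.

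**Figure D2:**
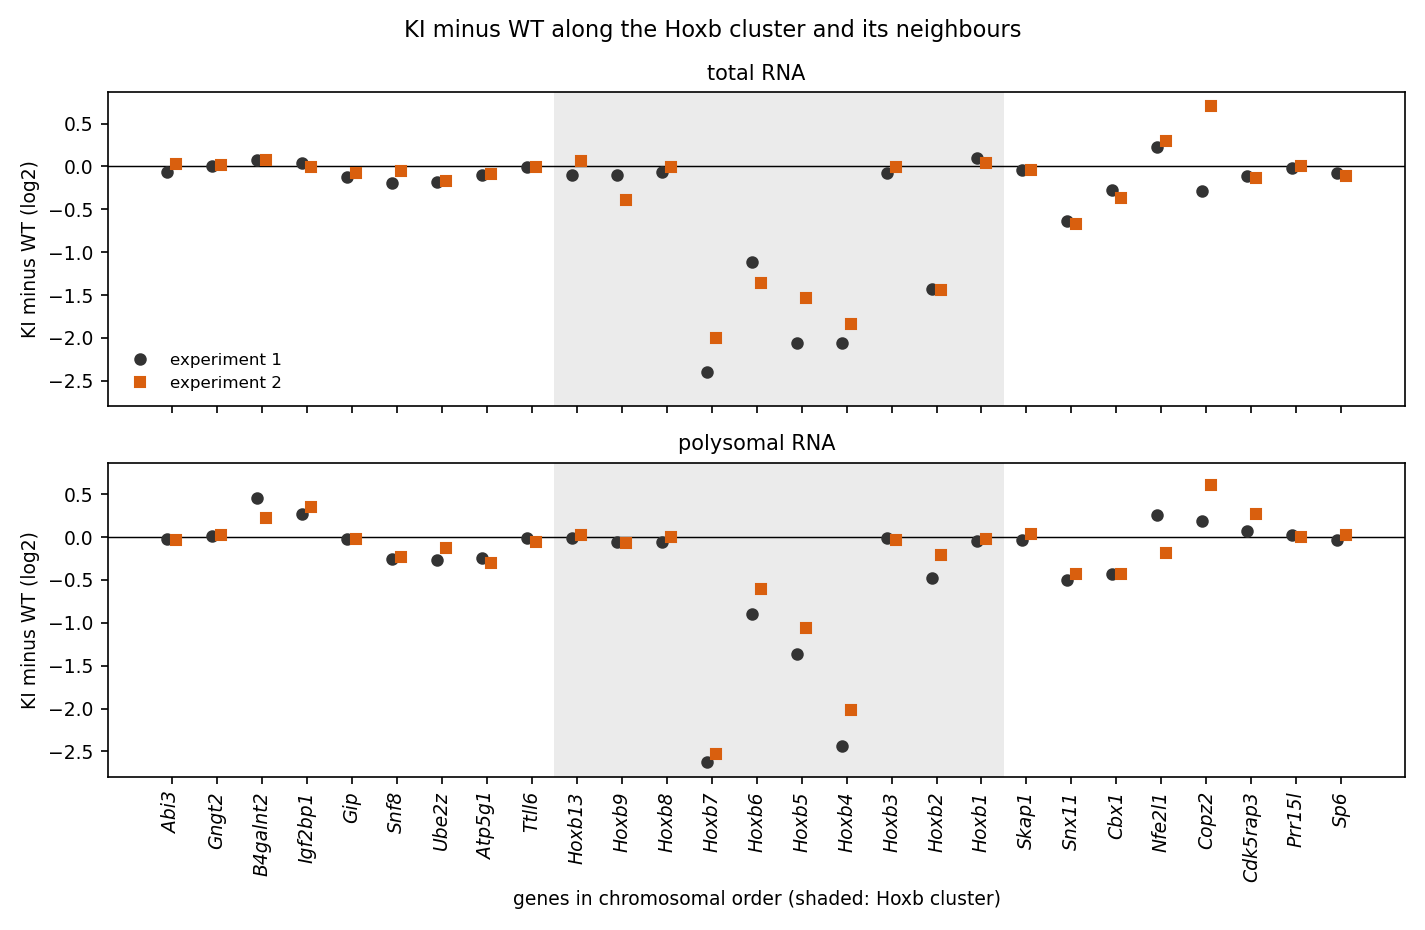
KI minus WT log2 difference (vertical axis) in total and polysomal RNA for each measured gene of the Hoxb cluster and its nearest protein-coding neighbours, placed in chromosomal order without distances (horizontal axis), with circles for experiment 1, squares for experiment 2 and the cluster shaded. The drop is at Hoxb7, Hoxb6, Hoxb5, Hoxb4 and Hoxb2, which were chosen for it, while Hoxb3 between them and the tested genes on both sides stay between -0.67 and 0.70 in total RNA. In polysomal RNA Hoxb3 and these neighbours stay between -0.51 and 0.61, and Hoxb2, at -0.48 and -0.21, lies within that range.

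Within WT cells, the members did not share one behaviour between total and polysomal RNA. Hoxb2 and Hoxb6 were lower in heavy polysomal RNA than in total RNA beyond the spread between arrays, Hoxb5 was lower without passing the test, and Hoxb4 and Hoxb7 were higher without passing it. Hoxb2 fell by 1.10 ± 0.10 on the log2 scale (limma, adjusted p = 0.0018), a total-to-polysomal signal ratio of 2.15. The fall was seen in 2 of 2 cultures, at -0.97 and -1.24. Its WT polysomal values, 8.20 and 7.96, lay not far above band tops of 7.77 and 7.76. Hoxb6 fell by 0.57 ± 0.12 (limma, adjusted p = 0.0150), a signal ratio of 1.49, with -0.42 and -0.73 by culture. Without a known background correction, signals near the band need not give ratios of RNA amounts. This limits a comparison of sizes with the brighter Hoxb4 and Hoxb7.

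Hoxb5 gave -0.53 ± 0.19 (limma, adjusted p = 0.0716), with -0.64 and -0.42 by culture. Hoxb4 gave 0.32 ± 0.17 (limma, adjusted p = 0.198), with 0.43 and 0.21. Hoxb7 gave 0.36 ± 0.14 (limma, adjusted p = 0.0854), with 0.21 and 0.51. Each of these 3 genes kept its sign in both cultures. Hoxb5 (limma, unadjusted p = 0.0311) and Hoxb7 (unadjusted p = 0.0392) missed the threshold only after adjustment over all tested genes, while Hoxb4 (unadjusted p = 0.115) missed it before.

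Thus 2 of the 5 members passed, both lower in polysomal RNA. Over all tested genes 37.9% passed in this comparison, 16.9% as lower and 21.0% as higher in polysomal RNA, so the members' count lies near the background and is no result about the group. In the distribution of all tested genes, which had a median of -0.01 and a 5th to 95th percentile range of -1.31 to 1.46, 7.16% of genes lay below Hoxb2. The shares below the others were 19.0% for Hoxb6, 19.9% for Hoxb5, 70.9% for Hoxb4 and 72.4% for Hoxb7.

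The fit pooled the spread over all 4 groups, and the KI arrays lie in the bottom band, where replicates differ little: the SD of the KI groups (n = 2) was 0.0034 to 0.0046 for Hoxb5 against 0.365 and 0.21 in WT. With only the WT arrays in the fit, Hoxb2 (limma, adjusted p = 0.0150) and Hoxb6 (adjusted p = 0.0441) still passed. With the culture as a block, Hoxb5 passed as well (adjusted p = 0.0219) beside Hoxb2 (0.00585) and Hoxb6 (0.0295), so the count was 3. The Hoxb6 call was lost without the WT total array of experiment 2 (adjusted p = 0.0631) and without the WT polysomal array of experiment 2 (0.0795). Without the WT total array of experiment 1, Hoxb7 passed as higher in polysomal RNA by 0.55 (adjusted p = 0.0119), and without that of experiment 2 Hoxb5 passed as lower, at -0.79 (adjusted p = 0.0246). Hoxb2 passed under every setting tried, with adjusted p-values up to 0.0150.

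**Figure D3:**
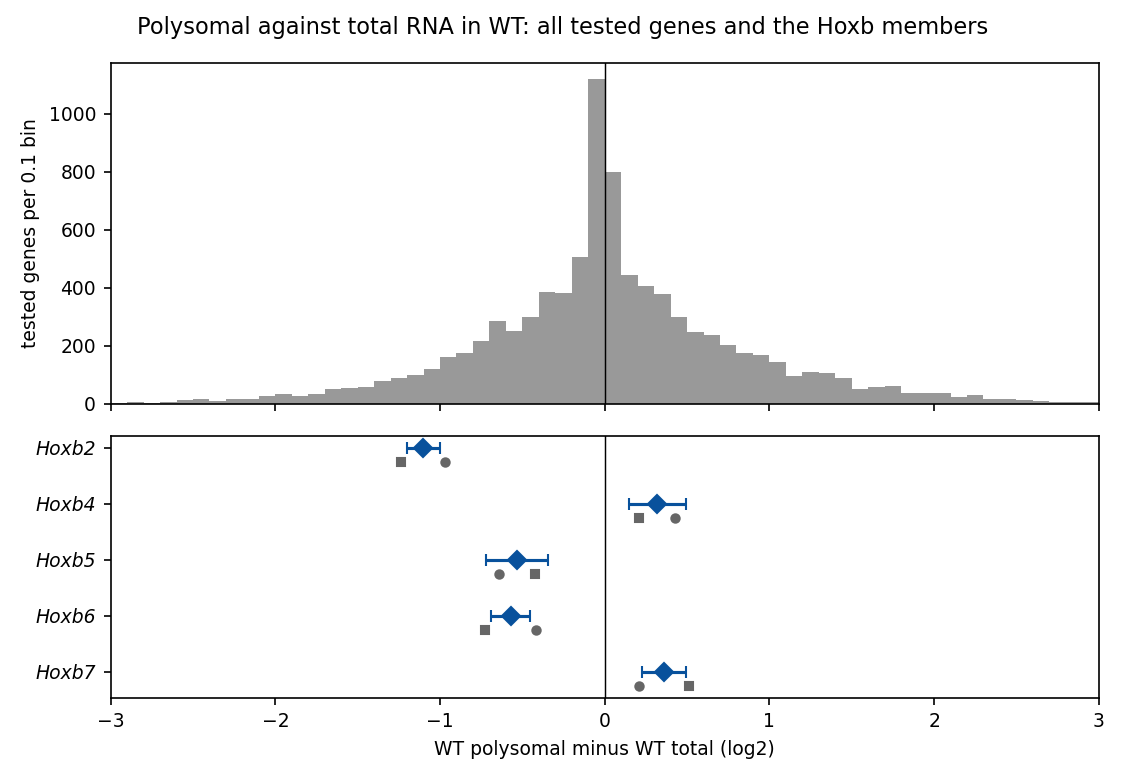
Polysomal minus total log2 difference within WT cells (horizontal axis, -3 to 3): above, the number of tested genes per bin, and below, the limma estimate of each member (diamond, bar for its SE) with the cultures of experiment 1 (circle) and experiment 2 (square). Hoxb2 lies at -1.10, Hoxb6 at -0.57 and Hoxb5 at -0.53, left of the all-gene median of -0.01, and Hoxb4 and Hoxb7 lie right of it at 0.32 and 0.36.

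Ordering each gene's own group means with their SDs (n = 2 arrays each) restates the same values and is no separate support. That WT lies above KI was set by the choice of the genes. For Hoxb2 the order was WT total (9.18 ± 0.023), WT polysomal (8.08 ± 0.17), then KI total (7.74 ± 0.017) and KI polysomal (7.73 ± 0.023). Only the arrays of the KI groups overlapped. For Hoxb6 the order was WT total (9.0 ± 0.035), WT polysomal (8.43 ± 0.18), KI total (7.77 ± 0.13) and KI polysomal (7.68 ± 0.026), with the KI groups overlapping. For Hoxb5 it was WT total (9.46 ± 0.37), WT polysomal (8.92 ± 0.21), KI polysomal (7.71 ± 0.0046) and KI total (7.66 ± 0.0034), where the WT arrays did not overlap and the KI pair lies wholly in the band.

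For the other pair the polysomal mean was on top. Hoxb4 had WT polysomal 9.92 ± 0.33 and WT total 9.60 ± 0.18, whose arrays overlapped, above KI polysomal 7.70 ± 0.031 and KI total 7.65 ± 0.023. Hoxb7 had WT polysomal 10.20 ± 0.060 above WT total 9.84 ± 0.27, without overlap of the arrays, and KI total 7.64 ± 0.0100 and KI polysomal 7.62 ± 0.0072 in or below the band. In the KI cells polysomal minus total differences ran from -0.20, for Hoxb6 in culture 1, to 0.05. They are differences between values at background and say nothing about ribosome loading of these mRNAs in KI cells.

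Other Hox genes were detected in both lines. Of the 33 other Hox genes on the array, each read by its brightest probe, 7 were above the band on all 8 arrays and 15 on 0 arrays. With the TALE cofactors, 43 genes were listed, 40 were on the array and 20 were tested, and in total RNA 1 of the 20 rose in KI and 0 fell (5 had an unadjusted p below 0.05, which held for 9.07% of all tested genes), with a median difference of -0.06 against -0.04 over all genes. In polysomal RNA limma called 0 of the 20, 6 had an unadjusted p below 0.05, against 11.5% of all tested genes, and the median was -0.03 against -0.01.

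The gene that rose was Hoxc10, a posterior Hox gene of the Hoxc cluster. It read 7.93 and 7.84 in WT total and 8.74 and 8.72 in KI total RNA, a difference of 0.85 ± 0.08 (limma, adjusted p = 0.0493), and 7.87, 7.86, 8.35 and 8.30 in the polysomal groups, a difference of 0.46 ± 0.08 (adjusted p = 0.116). Its second probe gave 1.17 and 0.84 in the same direction, so that both probes placed all KI arrays above all WT arrays. That second probe was above the band on the KI arrays only, at 8.44 to 8.83 against 7.61 to 7.64 on the WT arrays. The call in total RNA did not hold when any 1 of the 8 arrays was left out (adjusted p 0.0571 to 0.203), although the difference then stayed between 0.81 and 0.90.

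A further 3 genes with differences beyond 1 log2 unit did not pass the test, although Hoxc6 passed in both RNAs with the replicate number as a block. Hoxc6, expressed in the thoracic part of the trunk, read 11.56 and 10.87 in WT total against 9.93 and 9.28 in KI total RNA, and 11.46 and 10.78 against 9.33 and 8.40 in polysomal RNA, with differences of -1.61 ± 0.44 (limma, adjusted p = 0.375) and -2.25 ± 0.44 (adjusted p = 0.164). By experiment its differences were -1.63 and -1.59 in total and -2.12 and -2.38 in polysomal RNA. Hoxa7 differed by -1.19 ± 0.29 (adjusted p = 0.330) and -1.48 ± 0.29 (adjusted p = 0.161). Hoxc9 differed the other way, at 8.93 and 9.25 in WT total against 11.15 and 10.38 in KI total RNA, by 1.67 ± 0.38 (adjusted p = 0.317) and by 1.77 ± 0.38 (adjusted p = 0.190) in polysomal RNA. In each of these genes the WT and KI arrays did not overlap in either RNA, and both lines were above the band, unlike for the Hoxb members.

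Hoxa5 read 8.67 and 8.72 in WT total against 7.89 and 8.01 in KI total RNA, a difference of -0.75 ± 0.09 (limma, adjusted p = 0.0797), and differed by -0.64 ± 0.09 (adjusted p = 0.112) in polysomal RNA. Hoxd9 and Hoxd8 were above the band only on the WT total array of experiment 2, at 8.82 and 8.28, the array that also gave the only Hoxb9 value above its band. The highest of the 37 probes that mark the band read 8.22 there. In the tests between RNA types, the cofactors Meis1 and Meis2 rose in WT polysomal RNA by 0.74 ± 0.13 (limma, adjusted p = 0.00815) and 0.83 ± 0.12 (adjusted p = 0.00497). In KI polysomal RNA they rose by 0.60 ± 0.13 (adjusted p = 0.0154) and 1.23 ± 0.12 (adjusted p = 0.00199). In WT 2 of the 7 tested TALE genes rose, against 21.0% of all tested genes, and 0 of the 7 passed between KI and WT.

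**Figure D4:**
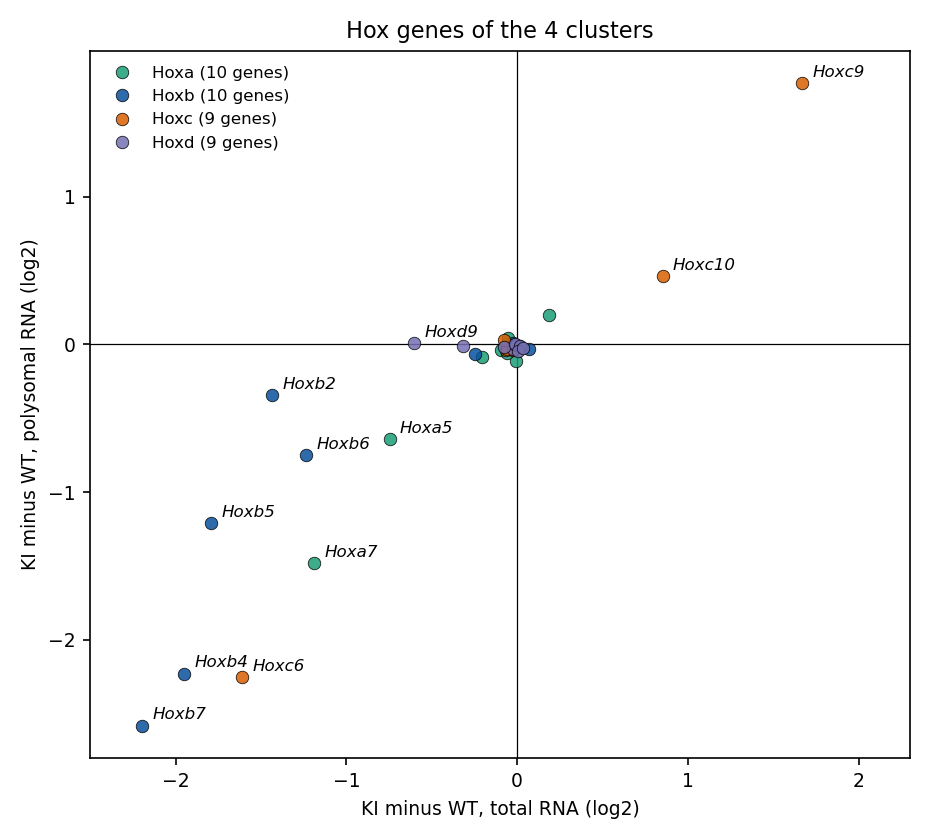
KI minus WT log2 difference in total RNA (horizontal axis) and polysomal RNA (vertical axis) for the Hox genes on the array, 1 point per gene, coloured by cluster. The 5 Hoxb members, which were chosen for this difference, lie at the left, from -1.24 to -2.20 in total RNA, with Hoxc6 and Hoxa7 also below -1 in both RNAs and Hoxc9 above 1 in both. The 2 axes use different arrays of the same lines.

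Genes known to act on Hox expression were followed by list, together with a list of 20 genes around the cluster that is not the same set as the nearest neighbours above and also holds Kpnb1 and Mrpl10. Of 108 listed genes 94 were on the array and 59 were tested: in total RNA 1 rose and 0 fell, with 8 at an unadjusted p below 0.05, and in polysomal RNA limma called 0, with 7 at an unadjusted p below 0.05. Over all tested genes the shares at that unadjusted p were 9.07% and 11.5%. Their median differences were -0.06 and -0.01, against -0.04 and -0.01 over all genes.

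Among the Polycomb genes, whose products keep Hox genes silent, 15 of 22 were tested and limma called 0 in either RNA (0 had an unadjusted p below 0.05). Their medians were -0.06 and -0.04, and Ezh2, the methyltransferase of the repressive H3K27 mark, differed by -0.23 ± 0.22 (adjusted p = 0.822) in total and 0.32 ± 0.22 (adjusted p = 0.696) in polysomal RNA. Among the trithorax-group genes, whose products keep Hox genes active, 10 of 14 were tested and limma called 0, with 1 and 2 at an unadjusted p below 0.05. Dpy30, a shared subunit of H3K4 methyltransferase complexes, gave -0.88 ± 0.21 (adjusted p = 0.330) and -0.47 ± 0.21 (adjusted p = 0.477).

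For retinoic acid, 6 of 18 genes were tested and limma called 0, with 1 in total and 0 in polysomal RNA at an unadjusted p below 0.05. Crabp2, which carries retinoic acid to its receptors, differed by 0.56 ± 0.29 (adjusted p = 0.658) and 0.66 ± 0.29 (adjusted p = 0.464). It read 7.68 and 8.59 in WT total and 7.68 on both WT polysomal arrays, against 8.30 to 8.83 on the KI arrays. Only the WT total array of experiment 2 was above its band among the WT arrays. The receptor Rxra differed by 0.33 ± 0.09 (adjusted p = 0.397) and 0.11 ± 0.09 (adjusted p = 0.817). Of the 6 tested genes, 4 in total and 3 in polysomal RNA were lower in KI. Of 13 listed factors that bind Hox control regions, 8 were tested and limma called 0, with 2 and 1 at an unadjusted p below 0.05, Nfyb, a subunit of the CCAAT-binding complex, giving -0.45 ± 0.14 (adjusted p = 0.403) and -0.36 ± 0.14 (adjusted p = 0.391).

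Among transcription factors with a positional pattern in mesenchyme, 8 of 21 were tested and Foxf1, a factor of visceral and lung mesenchyme, rose. It read 7.93 and 7.94 in WT total and 9.02 and 9.01 in KI total RNA, a difference of 1.08 ± 0.09 (limma, adjusted p = 0.0493), and 0.43 ± 0.09 (adjusted p = 0.190) in polysomal RNA. As for Hoxc10, the call was lost when any 1 of the 8 arrays was left out (adjusted p 0.0571 to 0.203). Msx1 differed by 0.52 ± 0.09 (adjusted p = 0.165) in total RNA, and Prrx1, a limb mesenchyme factor, by -1.08 ± 0.22 (adjusted p = 0.183) in polysomal RNA. Of the 8 tested, 3 in total and 2 in polysomal RNA had an unadjusted p below 0.05, against 9.07% and 11.5% of all tested genes. Over all tested genes limma called 0.0566% as higher in KI total RNA.

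Eif4e itself is the gene whose knock-in defines the KI line. Its WT total arrays read 7.82 and 7.76 and its KI total arrays 7.67 and 7.76, a difference of -0.07 ± 0.10 (limma, adjusted p = 0.871). The WT polysomal arrays read 8.66 and 8.44 against 7.76 on both KI polysomal arrays, a difference of -0.79 ± 0.10 (adjusted p = 0.0747). All of these values except the WT polysomal ones lie in the bottom band or just above it. The total RNA values therefore do not show equal levels in the lines, and the polysomal difference is taken against values near background. Where the probe lies relative to the changed codon was not analysed here, so these values check no label.

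The mean log2 signal of the 5 members was 9.52 and 9.31 in WT total, 9.25 and 8.98 in WT polysomal and 7.68 to 7.71 on the KI arrays. Against this profile, Pearson's r over the 8 arrays was computed for the 2575 tested genes outside the cluster whose group means span at least 1 log2 unit. The most alike were Arhgap22 (r = 0.956), Creld1 (0.954), Gstt1 (0.942), Egln3 (0.932), Thbd (0.929), Hoxc6 (0.921), Fbln1 (0.919), Tbca (0.918), Scara3 (0.904) and Znrd2 (0.902). The 8 arrays share lines and cultures and the profile is close to a step between the lines, so a gene much lower in KI than in WT tends to score high, and 0 of the 10 genes lie on chromosome 11.

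Thbd, thrombomodulin, was the one among these 10 whose KI arrays all lay in the band: it read 9.38 and 9.27 in WT total and 9.76 and 10.05 in WT polysomal RNA, against 7.62 to 7.66 on the KI arrays. Creld1 read 9.32 and 9.70 in WT total and 8.93 and 8.56 in WT polysomal RNA, with 7.67 to 7.80 on the KI arrays. Arhgap22 kept a clear signal in KI cells, at 10.23 and 10.11 in total RNA against 11.57 and 12.05 in WT. The second probe of Fbln1 gave smaller differences, -0.37 and -0.43, than the first, at -0.97 and -1.17, while the probes of Znrd2 gave -0.74 and -0.86 in total RNA.

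**Figure D5:**
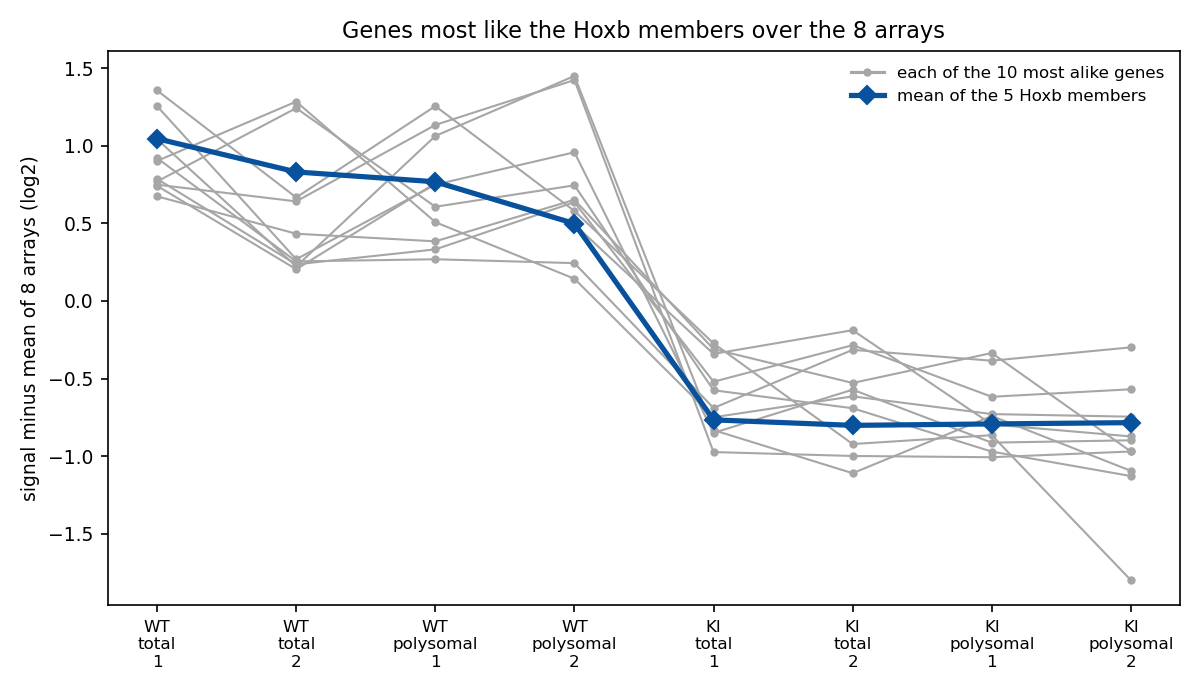
Log2 signal on each of the 8 arrays, less its mean over the arrays (vertical axis), for the mean of the 5 Hoxb members (thick line) and for each of the 10 genes outside the cluster whose profile over the arrays was most like it, by Pearson's r. Each of the 10 genes is lower on the 4 KI arrays than on the 4 WT arrays, while the order of the WT arrays differs from gene to gene.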

How the data were processed

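RNA of 4 groups of 2 arrays was measured on Illumina mouse bead arrays from 250 ng of labelled RNA per sample. The deposited values, processed by the authors, were taken as log2 signal (7.48 to 15.80). The submitters' processing notes name lumi, with no version; the sources used here do not give the log base, the normalization or any correction for background. A second deposited table held the same values within 1e-06 in 8 columns under names that no label gives, and these 8 columns were not used. So a background correction and normalization of unprocessed signal could not be made.

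Of 25697 probes, 23978 had 1 gene symbol, 0 several and 1719 none, and 23962 were matched to RefSeq (GRCm38.p6). Probes whose mean over the 8 arrays exceeded the median of the probe means (7.73) were kept, 12848 in all, of which 754 had no symbol. The brightest probe stood for a gene, which gave 8832 tested genes, 2309 of them with several probes. Means of the 4 groups were fitted to the 8 arrays with limma 3.58.1 under R 4.3.3 (lmFit, eBayes; 4 residual and 1.80 prior degrees of freedom). The p-values were two-sided and adjusted over all tested genes by Benjamini-Hochberg, and a gene passed below 0.05. The number of arrays limits the precision.

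In each line, total and polysomal RNA with one number carry one source name, read as a pairing by culture. Their deviations from the group means correlated across genes at 0.04 in WT and 0.56 in KI, and those of KI and WT arrays of the same number, which share an experiment number only, at 0.39 in total and 0.22 in polysomal RNA.

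The members and the gene lists were chosen with earlier results of these data known. Genes named were the Hoxb genes, Eif4e, other Hox or TALE genes that passed, up to 4 of each list by smallest p, and the 10 genes most like the members' mean. Hox genes beyond 1 log2 unit, Hoxd8, and the neighbours Skap1 and Ttll6 were named after their values were seen. Promoter sequences are from RefSeq.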

Additional observations from a re-analysis of the deposited data

Results flagged for a closer look

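For Hoxb5 and Hoxb7 the polysomal minus total difference ran one way in both WT cultures and the other way in both KI cultures. For Hoxb5 the WT mean was -0.53, with -0.64 and -0.42 by culture, against 0.05 in each KI culture. For Hoxb7 the WT mean was 0.36, with 0.21 and 0.51, against -0.02 in each KI culture. The difference between the lines was not tested, and all the KI values involved lie in the bottom band of the arrays or below it.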

How the results depend on the processing

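Quantile normalization, subtraction of array medians, the mean of a gene's probes and no filter on dim probes left the calls of Hoxc10, Foxf1, Hoxb2 and Hoxb6 in place. In total RNA, the count of other Hox and TALE genes went from 1 to 0 with only the 2 groups in the fit, and ran from 0 to 1 when each array was left out (the 1 being Hoxd9, without the WT total array of experiment 1). For regulators and neighbours the count went from 1 to 2 with an eBayes trend (Foxf1 and Msx1), to 0 with the replicate block by number, to 0 with only the 2 groups, and to 0 in every leave-out of 1 array. With the replicate block by number, Hoxc6 passed in place of Hoxc10 in total RNA, and in polysomal RNA the count of other Hox and TALE genes went from 0 to 1 (Hoxc6); leaving out arrays kept it at 0. The WT polysomal against total count of the members was 2, went to 3 with the replicate block, by number or by culture (Hoxb5 added), and ran from 1 to 3 when arrays were left out. The members' median KI minus WT difference ran from -2.05 to -1.53 in total and from -1.36 to -1.06 in polysomal RNA when arrays were left out. Counted over the members, Hoxc10 and Foxf1 only, 241 values stayed on their side of the threshold or within the replicate spread. A further 8 moved beyond that spread, 4 became and 22 ceased to be calls, and 0 reversed. The causes were not tested.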
